A study of Mus musculus with 26 samples.

Results

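The 39 genes described here encode lysosomal enzymes and membrane proteins, 3 subunits of the proton pump that acidifies the lysosome, the transcription factor TFEB, and 5 proteins that bring cytotoxic granules to the plasma membrane. They were taken by name, out of 23168 gene symbols measured, and comprise 11 proteases, 12 glycan and lipid hydrolases and their activators, 7 membrane proteins, 3 proton pump subunits, 1 regulator and 5 exocytosis genes. Their RNA was measured by sequencing in 26 libraries of C57BL/6 mouse cells of the T lineage, from animals of 6 to 8 weeks. DN1eP cells (4 libraries) are immature thymocytes sorted as lineage-negative, CD44+, CD25-, CD24low, CD5+, CD27+, Ly108- and CXCR3+, without the Vα14Jα18 T cell receptor at the surface. DN1eP-NKT cells (4 libraries) carry that receptor and grew out of DN1eP cells in 10 days on OP9 stromal cells that express the Notch ligand Dll-1, with IL-2 and IL-7 at 5 ng/ml each and 10% serum. Thymic NKT cells were sorted with TCRβ and a CD1d dimer loaded with αGalCer, as stage 1 (CD44- NK1.1-, 5 libraries), stage 2 (CD44+ NK1.1-, 7 libraries) and stage 3 (CD44+ NK1.1+, 6 libraries).

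Lysosomes break down proteins, glycans and lipids with acid hydrolases, and the pump that acidifies them is the V-ATPase. In killer lymphocytes the same compartment is a secretory lysosome: it stores perforin and granzymes, travels along microtubules, docks through RAB27A and fuses with the plasma membrane in a step that needs Munc13-4 (Unc13d), syntaxin 11 (Stx11) and Munc18-2 (Stxbp2). Loss of LYST, which controls the size of these organelles, causes Chediak-Higashi syndrome. TFEB binds E-box motifs with the core CACGTG in the promoters of many lysosomal genes. NKT cells of the latest thymic stage are known for their store of granzymes and perforin.

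The libraries fell into 2 sets of 13, which differ in the median FPKM (fragments scaled to transcript length and library size) of genes at 1 FPKM or more: 7.59 to 9.80 in set A and 12.96 to 13.91 in set B. Set A holds DN1eP libraries 1 to 4, stage 1 libraries 3 to 5, stage 2 libraries 5 to 7 and stage 3 libraries 4 to 6. Set B holds DN1eP-NKT libraries 1 to 4, stage 1 libraries 1 and 2, stage 2 libraries 1 to 4 and stage 3 libraries 1 to 3. The labels name 2 library kits and leave out which was used for each library. Groups are therefore compared within a set, or over both sets with the set in the fit. Depth was roughly 0.976 to 25.5 M (mega) fragments per library, and the deposited intervals of genes at 20 to 100 FPKM had half-widths of 5.53% to 23.8%. All 7 T cell markers reached a mean of 1 FPKM in every group. In DN1eP, library 1 was at 17.8 M and libraries 2 to 4 at 0.976 to 1.77 M, while the thymic libraries of set A were at 17.6 to 25.5 M. In set B, library 1 of DN1eP-NKT, of stage 1 and of stage 2 was at 12.03 to 14.9 M and the other 10 libraries at 1.04 to 2.66 M. Most of the comparison of DN1eP with thymic cells is therefore one of shallow with deep libraries, and its values are also given with libraries of like depth. Among the thymic NKT libraries, markers of other cells were highest in 3. A count of members is given without these 3 where it moves by over 1.5 times. In DN1eP, granulocyte and mast cell markers were higher still, at a summed 461 to 616 FPKM. In DN1eP-NKT, stromal markers summed to 75.6 to 402 FPKM. The summed FPKM of 9 granulocyte and mast cell genes was 125 in stage 1 library 3, 111 in stage 2 library 6 and 73.1 in stage 3 library 5, and at most 7.42 in the other thymic libraries. Stage 2 library 6 and stage 3 library 5 also held dendritic cell markers (555 and 111 FPKM summed over 8 genes) and erythroid markers (49.3 and 476 FPKM). Their B cell sums were 135 and 40.9 FPKM, and their macrophage and monocyte sums 76.9 and 35.2 FPKM. Lower sums stood in other libraries, such as erythroid sums of 13.6 and 14.1 FPKM in stage 3 libraries 4 and 6, 14.3 FPKM in DN1eP-NKT library 1, and a dendritic cell sum of 22.9 FPKM in stage 2 library 5. The labels do not say that replicates come from separate animals, so p-values measure the spread between these libraries, which may be technical. Differences are on the log2(FPKM + 1) scale with their standard error, which understates changes of low genes, and p-values are adjusted over all 11663 genes tested. In bulk RNA, fewer cells of a type and less RNA per cell cannot be told apart.

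Because the best known regulator of these genes acts through CACGTG, the windows from 250 bases before to 50 bases after the transcription start were searched for it. Windows were found for 32 of the 39 genes (RefSeq, GRCm38.p6). The motif, which reads the same on either strand, lay in the window of 13 of these 32 genes (40.6%), against 2187 of 27025 genes in the table (8.09%). The longer TCACGTGA, which contains it, lay in 6 of the 32 (18.8%) against 304 of all genes (1.12%): Atp6v0d1, Atp6v1a, Ctsa, Ctsd, Gla and Mcoln1. Among other lysosomal genes with a window, 8 of 29 held CACGTG (27.6%) and 4 of 29 TCACGTGA (13.8%). Of the other proton pump genes 2 of 10 held CACGTG (20%) and 1 of 10 the longer form (10%), and of the other granule exocytosis genes 1 of 21 (4.76%) and 0 of 21. The sequences, 5′ to 3′ with the motif in capitals, are those of Ctsd with both forms, Lamp1 with 4 copies, and 3 genes whose RNA differed between stages 2 and 3, as did that of Ctsd: Glb1, Lgmn and Lyst. The windows are chr7:142387778-142388077 (minus strand), chr8:13158911-13159210 (plus), chr9:114400828-114401127 (plus), chr12:102439043-102439342 (minus, 1 of 2 starts of Lgmn in the table) and chr13:13590159-13590458 (plus).
Ctsd: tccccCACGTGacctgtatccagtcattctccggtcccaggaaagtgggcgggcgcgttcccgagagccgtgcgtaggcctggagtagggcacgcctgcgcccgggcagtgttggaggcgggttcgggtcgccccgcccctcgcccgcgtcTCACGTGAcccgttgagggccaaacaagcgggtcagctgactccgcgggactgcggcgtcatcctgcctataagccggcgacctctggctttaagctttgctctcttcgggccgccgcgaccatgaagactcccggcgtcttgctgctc
Lamp1: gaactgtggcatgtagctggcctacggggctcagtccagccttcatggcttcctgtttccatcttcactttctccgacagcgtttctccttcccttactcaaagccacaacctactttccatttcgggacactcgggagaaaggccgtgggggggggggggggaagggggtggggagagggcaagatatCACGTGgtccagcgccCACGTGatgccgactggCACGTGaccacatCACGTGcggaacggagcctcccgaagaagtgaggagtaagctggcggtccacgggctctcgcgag
Glb1: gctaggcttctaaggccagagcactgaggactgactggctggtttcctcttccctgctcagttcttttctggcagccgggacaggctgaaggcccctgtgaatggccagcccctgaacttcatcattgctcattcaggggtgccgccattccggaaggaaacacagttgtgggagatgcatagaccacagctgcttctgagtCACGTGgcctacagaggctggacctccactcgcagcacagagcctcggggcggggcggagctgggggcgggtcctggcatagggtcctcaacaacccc
Lgmn: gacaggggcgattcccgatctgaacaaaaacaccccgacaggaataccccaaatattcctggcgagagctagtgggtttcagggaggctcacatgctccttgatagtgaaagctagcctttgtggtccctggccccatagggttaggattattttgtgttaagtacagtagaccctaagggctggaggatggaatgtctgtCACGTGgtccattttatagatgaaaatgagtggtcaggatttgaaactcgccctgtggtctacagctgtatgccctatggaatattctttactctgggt
Lyst: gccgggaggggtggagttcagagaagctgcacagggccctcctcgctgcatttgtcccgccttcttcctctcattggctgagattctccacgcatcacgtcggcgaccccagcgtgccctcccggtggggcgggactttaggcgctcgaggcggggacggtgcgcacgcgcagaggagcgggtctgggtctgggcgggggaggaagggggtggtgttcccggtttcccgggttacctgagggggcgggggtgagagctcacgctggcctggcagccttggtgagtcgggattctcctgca
Lyst has no CACGTG in this window, and the window of the other Lgmn start (chr12:102439679-102439978, minus strand) has none either. A gene was counted when any of its windows held the motif. Of the 8 genes with a window that were lower in stage 3 than in stage 2, 2 held the motif (Glb1 and Lgmn), and of the 22 that did not pass that test, 10 held it. The motif was picked because it is known from promoters of lysosomal genes, so a higher share among the members was likely beforehand. A match describes the letters in the window and is not evidence of binding.

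**Figure D1:**
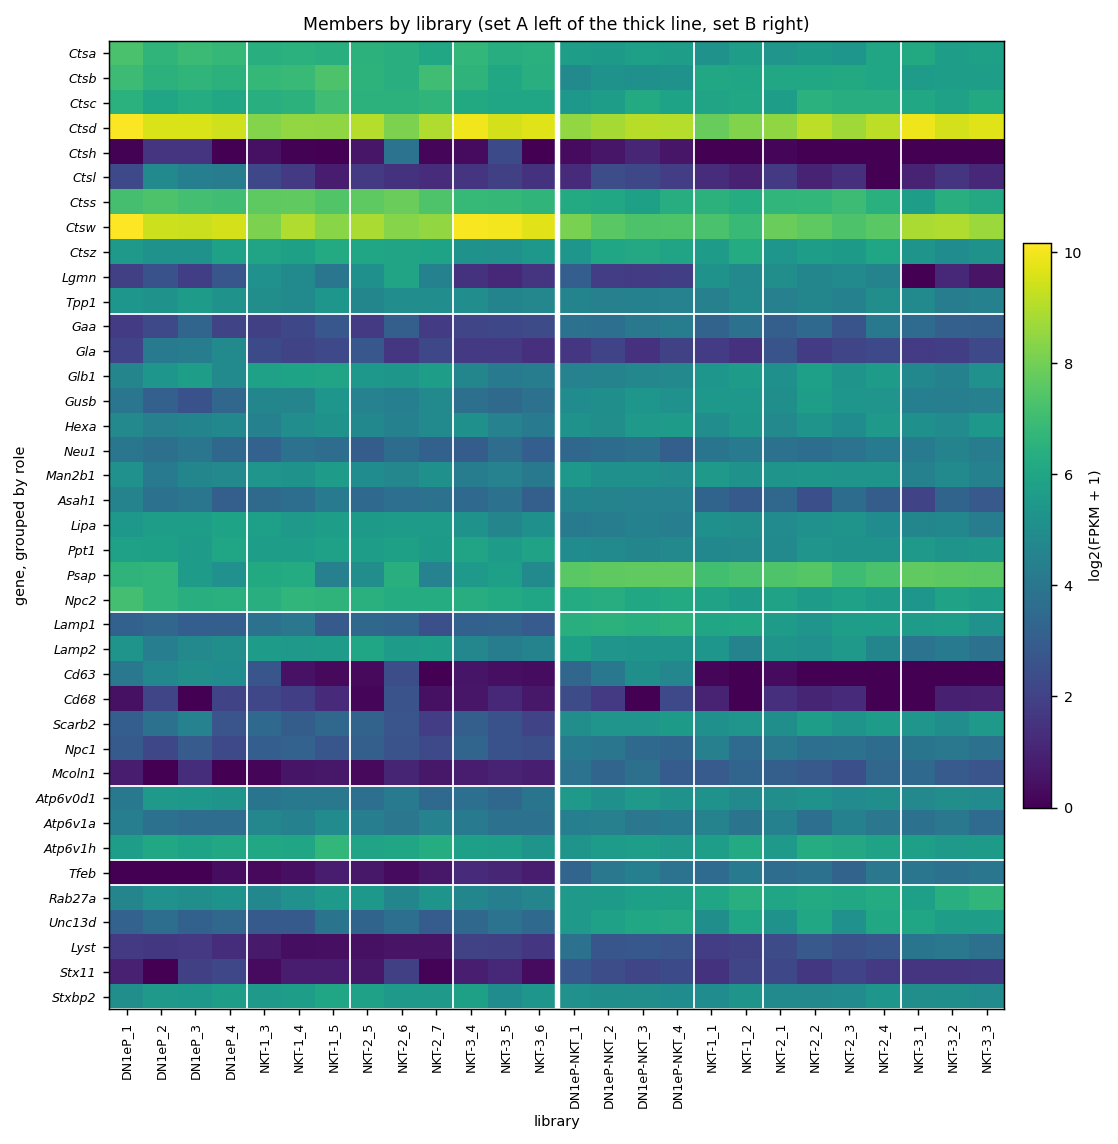
Level of each of the 39 genes (rows, grouped by role) in each of the 26 libraries (columns), as log2(FPKM + 1). Ctsd and Ctsw are the brightest rows, while Tfeb, Mcoln1 and Lamp1 are dark in set A, left of the thick line, and brighter in set B.

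Averaged over the thymic libraries of each set, the proteases Ctsd and Ctsw had the highest levels per length. In stage 1 of set B alone the activator Psap (prosaposin), at 144 FPKM, was above Ctsw, at 132 FPKM. Cathepsin D (Ctsd), the main aspartic protease of lysosomes, averaged 543 FPKM over the thymic libraries of set A and 548 FPKM in set B. Cathepsin W (Ctsw), a cysteine protease of NK and cytotoxic T cells, averaged 579 and 268 FPKM. The lowest average in set A was that of the calcium channel gene Mcoln1, at 0.608 FPKM, which averaged 7.28 FPKM in set B. The lowest in set B was that of cathepsin H (Ctsh), at 0.0116 FPKM, which averaged 2.08 FPKM in set A. The highest values of Ctsh, 13.6 and 3.86 FPKM, were in stage 2 library 6 and stage 3 library 5. All 12 hydrolase genes and 3 of the 5 exocytosis genes reached 1 FPKM in every library, as did 30 of the 39 genes.

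Stage 3 cells had less legumain, LAMP2 and β-glucuronidase RNA than stage 2 cells, and more Lyst, Ctsw and Ctsd RNA, in each library set. Over both sets, 3 genes were higher and 10 lower in stage 3 (33.3% of the 39, against 29% of all genes tested, 10.6% higher and 18.4% lower), so the share that changed was near that of all genes. After quantile normalization 5 were higher and 8 lower. Of all genes called, 48.1% were then higher, against 36.6% as deposited. Within set A alone 3 genes rose and 7 fell, which is 25.6% of the 39, against 11.7% of all genes (3.78% higher and 7.89% lower). Within set B alone 3 rose and 7 fell, also 25.6%, against 21.6% (8.64% higher and 12.9% lower). The 2 sets share no library: the 3 that rose (Ctsd, Ctsw, Lyst) and 6 of those that fell (Ctss, Glb1, Gusb, Lamp2, Lgmn, Lipa) were called in each of them. The seventh was Ctsz in set A and Man2b1 in set B. The difference had the same sign in the 2 sets for 33 of the 39 genes, and its size varied together across genes (Pearson r = 0.956, a description over genes, which are not independent). No member passed a test of whether the difference itself depended on the set (0.326% of all genes did, 0.06% with a higher and 0.266% with a lower difference in set B, and 1 member, Rab27a, had an unadjusted p under 0.05).

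Legumain (Lgmn, chr12:103632308-103677907, mm9), an asparagine-specific endopeptidase that activates cathepsins, changed most. In set A it stood at 33.5, 59.8 and 21.0 FPKM in stage 2 libraries 5 to 7 and at 1.80, 1.17 and 1.93 FPKM in stage 3 libraries 4 to 6. In set B it stood at 31.3, 24.3, 27.7 and 22.1 FPKM in stage 2 libraries 1 to 4 and at 0, 1.23 and 0.449 FPKM in stage 3 libraries 1 to 3. No stage 3 library came near a stage 2 library, and Lgmn differed by -3.99 ± 0.26 (adjusted p = 6.1e-12). LAMP2, a lysosomal membrane glycoprotein, stood in set A at 61.4, 46.4 and 51.5 FPKM in stage 2 and 25.4, 18.8 and 22.6 FPKM in stage 3. In set B its levels were 37.1, 34.1, 43.7 and 24.1 FPKM in stage 2 and 13.9, 17.7 and 12.8 FPKM in stage 3. The groups did not overlap in either set, and Lamp2 differed by -1.19 ± 0.17 (adjusted p = 4.2e-06).

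Of the glycosidases, which clip sugar chains, Gusb, Glb1 and Man2b1 fell, and Hexa, Gla, Gaa and Neu1 did not pass the test. Gusb (β-glucuronidase) stood at 21.9, 20.1 and 28.4 FPKM in stage 2 and 12.7, 10.4 and 12.7 FPKM in stage 3 of set A. In set B, Gusb was at 32.2, 49.1, 39.4 and 38.5 FPKM in stage 2 and at 20.01, 19.6 and 20.6 FPKM in stage 3, a difference over both sets of -0.92 ± 0.18 (adjusted p = 0.00023). Glb1 (β-galactosidase) differed by -0.87 ± 0.16, and Man2b1 (α-mannosidase) by -0.65 ± 0.14. Of the 12 hydrolases, 4 fell, the other being Lipa (lysosomal acid lipase, -0.55 ± 0.12), and 8 did not pass the test. Among the proteases Ctss (cathepsin S, which trims the invariant chain of MHC class II) fell by 0.77 and Ctsz by 0.60 on the log2 scale. Smaller calls were lost without 1 library. Ctsb (-0.39 ± 0.13) was at -0.29 without stage 2 library 7 and -0.32 without stage 3 library 5 (adjusted p = 0.0956 and 0.0825). The pump subunit Atp6v1h (-0.44 ± 0.16) lost its call without stage 2 library 2, 3 or 7 or stage 3 library 2, 3 or 6, at -0.44 to -0.37.

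The 3 members that rose were 2 proteases and the organelle size regulator. Ctsw (chr19:5465240-5468498) stood in set A at 465, 320 and 372 FPKM in stage 2 and 1076, 1029 and 842 FPKM in stage 3. In set B it stood at 228, 200, 162 and 189 FPKM in stage 2 and 467, 499 and 401 FPKM in stage 3. The groups were apart in each set, and Ctsw differed by 1.29 ± 0.17 (adjusted p = 1.6e-06). Ctsd (chr7:149561821-149573775) stood in set A at 530, 283 and 503 FPKM in stage 2 and 998, 726 and 811 FPKM in stage 3. In set B its levels were 362, 575, 424 and 564 FPKM in stage 2 and 955, 724 and 807 FPKM in stage 3. Its difference was 0.89 ± 0.17 (adjusted p = 0.0002), again with no overlap. Lyst (chr13:13682676-13869707) stood in set A at 0.389, 0.455 and 0.461 FPKM in stage 2 and 3.06, 2.77 and 2.02 FPKM in stage 3. In set B it stood at 4.17, 6.11, 4.71 and 5.54 FPKM in stage 2 and 14.7, 15.8 and 12.6 FPKM in stage 3. The sets differ in level. The step from stage 2 to stage 3 was 1.32 ± 0.26 in set A and 1.33 ± 0.24 in set B. In FPKM, the group means went from 0.435 to 2.62 in set A and from 5.13 to 14.35 in set B. The 1 added before the log2 weighs more on the low values of set A, so these like steps are not like fold changes.

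**Figure D2:**
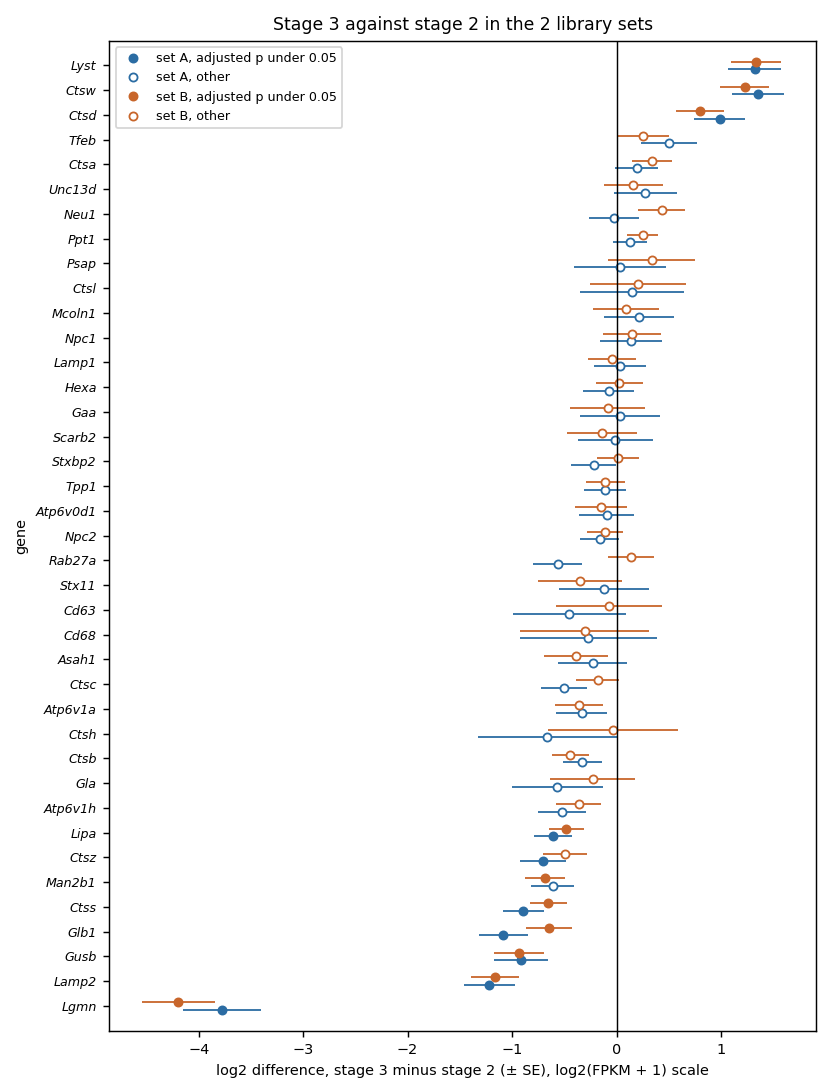
Difference between stage 3 and stage 2 for each gene, in set A (blue) and set B (orange), on the log2(FPKM + 1) scale; bars are ± SE and filled points have an adjusted p under 0.05. Lgmn lies far to the left near -4 in each set, and Lyst, Ctsw and Ctsd are filled on the right in each set.

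The 4 other exocytosis genes did not pass the test between stages 2 and 3. Rab27a, the GTPase that docks granules, stood in set A at 41.4, 24.3 and 37.9 FPKM in stage 2 and 24.2, 19.8 and 23.7 FPKM in stage 3. In set B it stood at 63.5, 73.0, 65.0 and 75.8 FPKM and at 52.5, 82.2 and 101.9 FPKM, so its difference was -0.56 ± 0.23 in set A and 0.14 ± 0.22 in set B, neither past the threshold (adjusted p = 0.14 and 0.73). Over both sets Unc13d differed by 0.22 ± 0.21, Stx11 by -0.24 ± 0.29 and Stxbp2 by -0.10 ± 0.15. Of 26 further granule exocytosis and cargo genes tested, 9 rose and 1 fell (38.5%, against 29% of all genes, 10.6% higher and 18.4% lower): the effectors Gzmb (5.69 ± 0.46), Gzma (5.59 ± 0.36) and Prf1 (4.48 ± 0.21) had the largest rises of those at a mean of 5 FPKM or more, with Arl8b, which moves lysosomes outward, at -0.51 ± 0.14. Prf1 (perforin) stood at 0.434 to 1.82 FPKM in stage 2 and at 38.1 to 59.0 FPKM in stage 3. Of 7 inhibitors of granule and lysosomal proteases, 3 rose and 2 fell (71.4%). Serpinb9, the inhibitor of granzyme B, differed by 1.80 ± 0.14, Cst7 (cystatin F, an inhibitor of cathepsins in granules) by 0.78 ± 0.13. No inhibitor fell within set B alone. Serpinb1a differed by -4.15 ± 0.80 in set A, where stage 2 library 6 was highest at 304 FPKM, and by -1.05 ± 0.75 in set B (adjusted p = 0.36). Of 35 further lysosomal genes, 7 rose, among them the sulfatases Sgsh (1.42 ± 0.26) and Ids (1.13 ± 0.28), and 4 fell, led by the ganglioside activator Gm2a (-0.63 ± 0.18), which is 31.4% in all. Of 14 further proton pump genes 1 rose and 1 fell (14.3%).

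Between stages 1 and 2, none of the 39 genes passed limma's test (1% of all genes did, 0.566% higher and 0.437% lower in stage 2), and 2 had an unadjusted p under 0.05: Ctsd at 0.58 ± 0.18 (adjusted p = 0.15) and Lamp1 at -0.49 ± 0.18 (adjusted p = 0.27). Ctsd passed without stage 2 library 6, alone or left out together with stage 3 library 5, and Lamp1 without stage 1 library 5, so the count was 1 in each of these fits. Within set A and within set B alone the count was 0 as well, against 0.489% of all genes (0.309% higher, 0.18% lower) and 0.214% (0.12% higher, 0.0943% lower), with 1 and 4 members at an unadjusted p under 0.05. No member passed a test of whether the difference depended on the set, nor did any other gene (0%). Ctsd stood in set A at 312, 367 and 354 FPKM in stage 1, and in set B at 225 and 300 FPKM. In the same comparison 3 of the 26 granule exocytosis and cargo genes of the wider list rose (11.5%, against 1% of all genes), among them Nkg7 (1.98 ± 0.23) and Gzmb (2.34 ± 0.49).

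**Figure D3:**
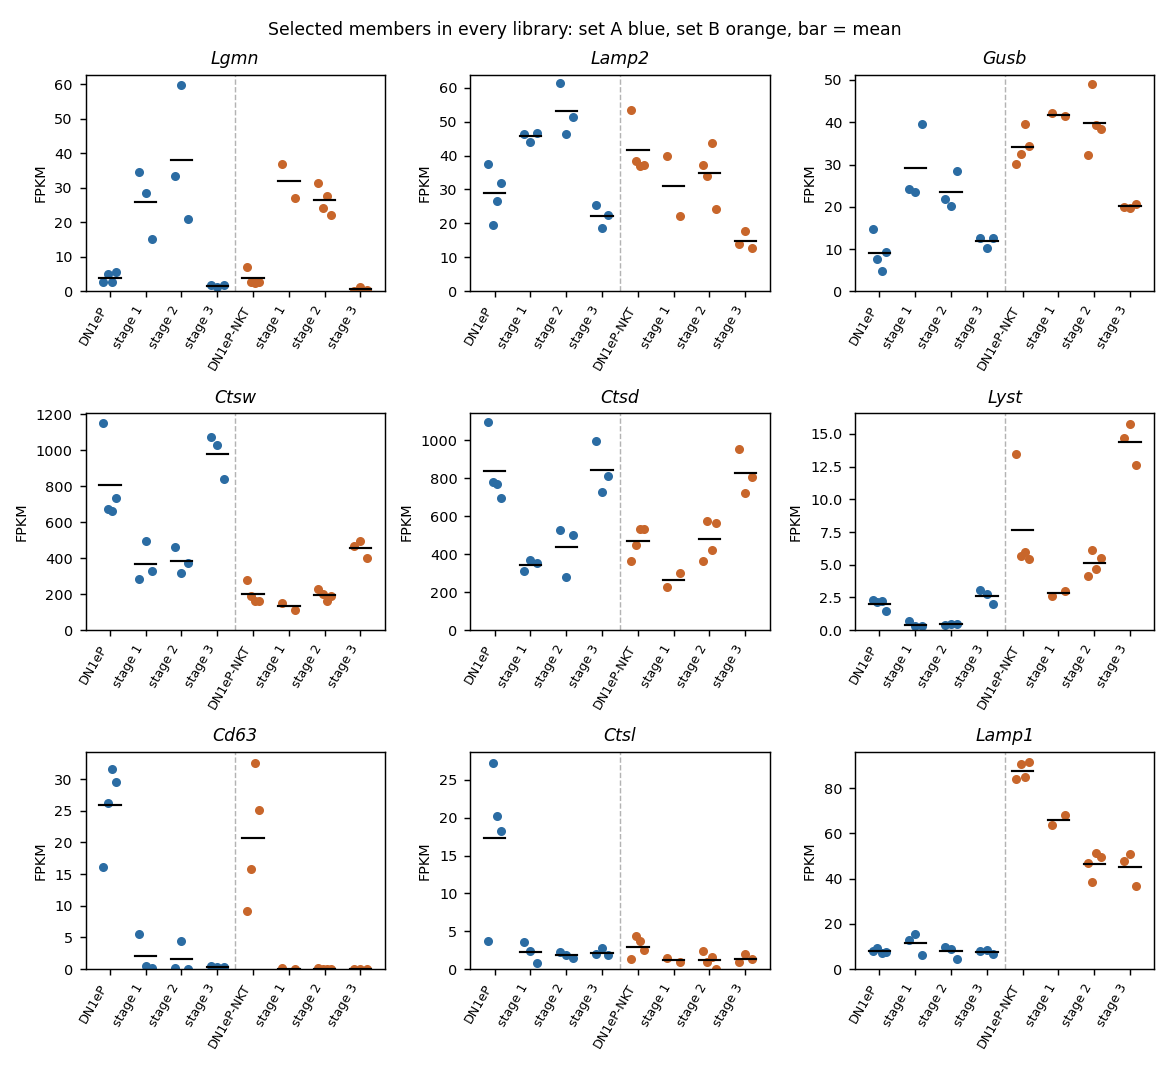
FPKM of 9 members in every library, by group, set A in blue and set B in orange; bars are group means. Lgmn is high in stages 1 and 2 and low in DN1eP, stage 3 and DN1eP-NKT, and Cd63 stands at 9.22 FPKM or more in DN1eP and DN1eP-NKT and at most 5.52 FPKM in thymic NKT cells.

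DN1eP cells had more Cd63 RNA than thymic NKT cells in set A. Their Ctsw, Ctsd and Lyst levels were above those of stages 1 and 2, and their Lgmn level below. Ctsl, Gla and Atp6v0d1 were also called higher in DN1eP than in every stage, but these calls rest on DN1eP libraries 2 to 4, the shallow ones. Stage 1 differed from DN1eP at 14 of the 39 genes, 7 higher and 7 lower (35.9%, against 33.7% of all genes, 18.9% higher and 14.7% lower). Stage 2 differed at 12, 3 higher and 9 lower (30.8%, against 29.5%, 11.6% higher and 17.9% lower). Stage 3 differed at 9, 1 higher and 8 lower (23.1%, against 20.6%, 4.42% higher and 16.2% lower). The shares are near those of all genes in each comparison. After upper-quartile scaling and quantile normalization the split was 7 higher and 8 lower, and 4 higher and 7 lower, for stage 2, and 1 higher and 4 lower under each for stage 3. Of all genes called, 51.3% and 51% were then higher for stage 2, and 49% and 49.3% for stage 3. With DN1eP library 1 alone, at a depth like that of the thymic libraries, 7 members were called for stage 1 (3 higher, 4 lower), 7 for stage 2 (1 higher, 6 lower) and 0 for stage 3. All genes called fell to 1477, 944 and 53 in that limma fit, where the lone library is assumed to vary like the other groups. These 3 comparisons share the DN1eP libraries.

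CD63, a tetraspanin of lysosomes and of the granules of basophils and mast cells, stood at 16.1, 26.2, 31.6 and 29.6 FPKM in DN1eP libraries 1 to 4. In set A it was at 5.52, 0.412 and 0.204 FPKM in stage 1, 0.21, 4.36 and 0 FPKM in stage 2, and 0.48, 0.346 and 0.268 FPKM in stage 3. All DN1eP libraries were above all thymic libraries, and the 2 high thymic values are those of stage 1 library 3 and stage 2 library 6. The differences of Cd63 were -3.55 ± 0.51, -3.81 ± 0.51 and -4.26 ± 0.51 for stages 1, 2 and 3 (adjusted p at most 1.3e-05), and with DN1eP library 1 alone -2.94, -3.19 and -3.65 (adjusted p = 0.021, 0.018 and 0.055). Ctsl (cathepsin L) stood at 3.72, 27.3, 20.2 and 18.3 FPKM in DN1eP and at 0.748 to 3.57 FPKM in the 9 thymic libraries of set A, with differences of -2.35, -2.43 and -2.28. Gla (α-galactosidase A, which cleaves terminal α-galactose from glycolipids) stood at 3.08, 17.1, 18.2 and 27.2 FPKM in DN1eP and at 1.69 to 5.81 FPKM in those thymic libraries, with differences of -1.63, -1.62 and -2.19. The pump subunit Atp6v0d1 stood at 16.1, 43.8, 41.4 and 37.1 FPKM in DN1eP and at 9.50 to 17.3 FPKM in the thymic libraries. For all 4 of these genes DN1eP library 1 was the lowest of its group. Its values of Gla and Atp6v0d1 lay within the thymic range, and that of Ctsl just above it. With library 1 alone, none of the 3 passed in any stage: Ctsl was at -0.66, -0.73 and -0.58, Gla at 0.17, 0.17 and -0.40, and Atp6v0d1 at -0.05, -0.31 and -0.41. Without library 1 of DN1eP and of DN1eP-NKT the differences were larger, from -2.84 to -2.99 for Ctsl and from -2.22 to -2.79 for Gla. Gla also passed in no stage with the compared libraries alone (adjusted p = 0.069, 0.11 and 0.061), nor did Ctsl in stage 3 (0.054) or Atp6v0d1 in stages 1 and 3 (0.055 and 0.058).

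Basophil markers and depth moved with these genes across the DN1eP libraries. The summed FPKM of the 9 granulocyte and mast cell genes was 461 to 616 in DN1eP, with 7 of the 9 at a mean of 1 FPKM or more and S100a9 listed at 0. The basophil proteases Mcpt8 and Prss34, chosen after their values were seen, stood at 22.3, 162, 135 and 155 FPKM and at 36.7, 375, 334 and 363 FPKM in DN1eP libraries 1 to 4, also lowest in library 1. Among libraries 2 to 4, Cd63 was highest in library 3, where Mcpt8 and Prss34 were below their levels in libraries 2 and 4. Cpa3 was the third gene of the 9 that was lowest in library 1. Mpo, Elane, Prtn3, Ctsg and S100a8 were highest there, with Mpo at 271, 28.8, 26.6 and 17.97 FPKM and Elane at 87.1, 0, 0 and 0.717 FPKM. The dendritic cell sum was 4.73, 58.7, 44 and 66.8 FPKM. In stage 1 library 3, where Cd63 was at 5.52 FPKM, Mcpt8 and Prss34 stood at 49.2 and 68.1 FPKM. In the DN1eP libraries, depth and the RNA of other cells cannot be told apart as to the levels of Cd63, Ctsl, Gla and Atp6v0d1. What other cells add to the Cd63 level of DN1eP was not tested.

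For Ctsw, Ctsd, Lyst, Lgmn and Gusb, the calls against DN1eP were made in stages 1 and 2 and not in stage 3. Ctsw stood at 1154, 672, 660 and 737 FPKM in DN1eP and at 283, 497 and 332 FPKM in stage 1. Stages 1 and 2 were below DN1eP by -1.12 ± 0.23 and -1.04 ± 0.23, while stage 3 differed by 0.32 ± 0.23 (adjusted p = 0.37). Ctsd stood at 1098, 783, 768 and 697 FPKM in DN1eP and differed by -1.26 ± 0.23 in stage 1 and -0.96 ± 0.23 in stage 2. Lyst stood at 2.30, 2.12, 2.21 and 1.504 FPKM in DN1eP and at 0.674, 0.288 and 0.330 FPKM in stage 1, with differences of -1.09 ± 0.24 and -1.07 ± 0.24. Lgmn ran the other way, from 2.80, 4.91, 2.74 and 5.53 FPKM in DN1eP to 34.4, 28.4 and 15.1 FPKM in stage 1, and differed by 2.40 ± 0.35 in stage 1 and 2.89 ± 0.35 in stage 2. Gusb stood at 14.8, 7.68, 4.88 and 9.35 FPKM in DN1eP and at 24.2, 23.4 and 39.7 FPKM in stage 1, and differed by 1.61 ± 0.24 and 1.34 ± 0.24. For stage 3, Lgmn (-0.89 ± 0.35) and Gusb did not pass the test. With DN1eP library 1 alone, Ctsw, Ctsd, Lyst and Lgmn were called in stages 1 and 2 as well, and Gusb in stage 1 (0.89) but not in stage 2 (0.61, adjusted p = 0.22).

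With DN1eP library 1 alone, Glb1 in stage 1 and Ctsa in stage 2 were the calls kept among those that follow. Atp6v1a (0.83 ± 0.23) and Glb1 (0.75 ± 0.22) were higher in stage 1 than in DN1eP, and Lamp2 was higher in stage 2 (0.88 ± 0.23). Tfeb was higher in stage 3 (0.94 ± 0.25) at low levels, from 0.0235, 0, 0 and 0.248 FPKM in DN1eP to 1.34, 1.16 and 0.688 FPKM. Calls lost without 1 library were Ctsz, Lamp2 and Man2b1 in stage 1, Ctsa and Scarb2 in stage 2, and Scarb2, Glb1, Tpp1 and Lipa in stage 3. In stage 1, Ctsz (0.55) was at 0.44 to 0.57 without DN1eP library 2 or 3 or stage 1 library 3 or 5. Lamp2 (0.68) was at 0.52 to 0.67 without DN1eP library 2 or stage 1 library 3 or 5, and Man2b1 (0.67) at 0.54 without stage 1 library 5. In stage 2, Ctsa (-0.58) was at -0.46 without DN1eP library 1 or stage 2 library 7, and Scarb2 (-0.93) at -0.97 to -0.56 without DN1eP library 2 or 3 or stage 2 library 6 or 7. In stage 3, Scarb2 (-0.94) was at -0.94 to -0.61 and Glb1 (-0.74) at -0.68 to -0.56 without DN1eP library 2 or 3 or stage 3 library 5 or 6. Tpp1 (-0.58) was at -0.55 to -0.49 without DN1eP library 3 or stage 3 library 5 or 6, and Lipa (-0.69) at -0.52 without stage 3 library 5. With the 7 libraries of DN1eP and stage 3 alone in the fit, 2 of the 9 calls of stage 3 were made, Cd63 and Tfeb. With those of DN1eP and stage 1 alone, 8 members passed in place of 14.

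The exocytosis genes Rab27a, Unc13d, Stx11 and Stxbp2 passed none of the tests against DN1eP. In DN1eP they stood at 23.5 to 34.9, 8.02 to 11.9, 0 to 3.44 and 31.5 to 51.1 FPKM, and in the 9 thymic libraries of set A at 19.8 to 42.8, 6.44 to 14.1, 0.0776 to 2.80 and 30.0 to 62.1 FPKM, with overlap in each. Of the 26 wider exocytosis and cargo genes, 1 rose and 7 fell in stage 1 (30.8%, against 33.7% of all genes), 1 rose and 8 fell in stage 2 (34.6%, against 29.5%), and 3 rose and 3 fell in stage 3 (23.1%, against 20.6%). Gzmb differed by -6.14 ± 0.63 and Prf1 by -4.69 ± 0.29 in stage 1, while Coro1a, an actin regulator, was higher by 1.29 ± 0.25. Among the 35 further lysosomal genes, 2 rose and 5 fell in stage 1 (20%), 1 rose and 7 fell in stage 2 (22.9%), and 2 rose and 5 fell in stage 3 (20%), with Gm2a at -1.76 ± 0.24 in stage 1 and Arsb, a sulfatase, at 1.90 ± 0.33 in stage 3.

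**Figure D4:**
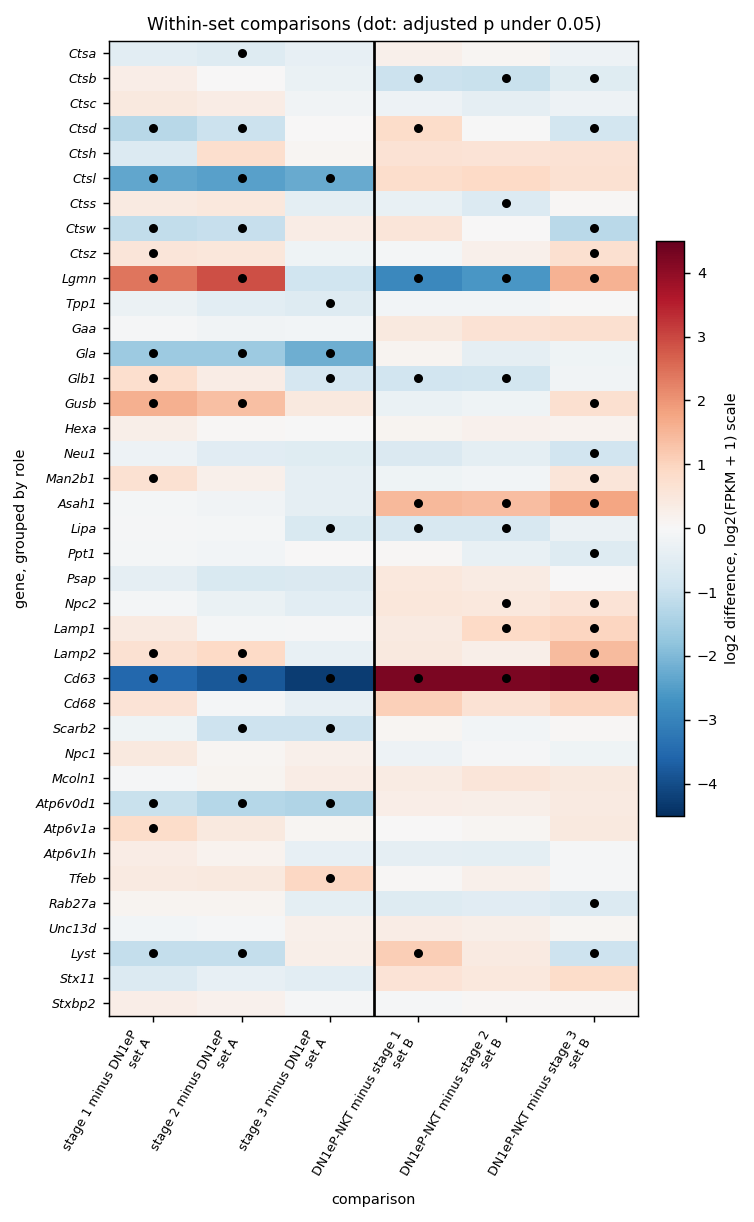
Difference of each gene (rows, grouped by role) in the 6 comparisons made within a library set (columns), on the log2(FPKM + 1) scale from blue (lower) to red (higher); a dot marks an adjusted p under 0.05. Cd63 carries a dot in all 6 columns, and the colour of Lgmn turns between stage 2 and stage 3 in each set.

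DN1eP-NKT cells had more Cd63 and Asah1 RNA than thymic NKT cells of every stage in set B. Their Lgmn level lay between those of stage 3 and of stages 1 and 2. They differed from stage 1 at 8 of the 39 genes, 4 higher and 4 lower (20.5%, against 15.2% of all genes, 8.49% higher and 6.76% lower). From stage 2 they differed at 9, 4 higher and 5 lower (23.1%, against 19.1%, 11.1% higher and 7.97% lower). From stage 3 they differed at 16, 9 higher and 7 lower (41%, against 23.4%, 15% higher and 8.39% lower). After quantile normalization the split was 4 higher and 10 lower against stage 2, and 9 and 7 as before against stage 3. Of all genes called, 47.7% and 48.8% were then higher against stages 2 and 3, in place of 58.3% and 64.1%. The median difference of the 39 genes from stage 3 was 0.05, and that of all genes 0.05. Without the 3 deep libraries of set B the counts were 4, 9 and 13, and Ctsb, Lgmn, Asah1 and Cd63 were those called against stage 1. That fit leaves stage 1 of set B with 1 library, assumed to vary like the other groups. All genes called against stages 2 and 3 stayed within 1.5 times of their counts in the main fit. The comparisons with the 3 stages share the DN1eP-NKT libraries.

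Cd63 (chr10:128345975-128349874) stood at 9.22, 15.8, 32.6 and 25.2 FPKM in DN1eP-NKT libraries 1 to 4. In the thymic libraries of set B it was at 0.0895 and 0 FPKM in stage 1, 0.214, 0, 0 and 0 FPKM in stage 2, and listed at 0 in all 3 libraries of stage 3. The differences were 4.24 ± 0.57, 4.23 ± 0.47 and 4.30 ± 0.51. Markers of stroma, the kind of cell on which this group was grown, moved with it: their summed FPKM over 12 genes was 75.6, 268, 402 and 396 in the same 4 libraries, in the same order as Cd63, and at most 2.51 in the thymic libraries. Of the 12 markers 10 reached a mean of 1 FPKM, and Lum was listed at 0. Other members, among them Ctsd, Ctsc, Gusb and Lipa, had the same order over the 4 libraries. What stromal cells add to the levels of Cd63 and of these members was not tested. Asah1 (acid ceramidase) stood at 22.8, 22.4, 21.7 and 21.5 FPKM, with no such gradient, against 8.82 and 6.30 FPKM in stage 1, 4.53 to 11.1 FPKM in stage 2 and 3.26 to 8.70 FPKM in stage 3. Its differences were 1.45 ± 0.35, 1.40 ± 0.28 and 1.79 ± 0.31, the first at 1.24 (adjusted p = 0.102) without stage 1 library 2.

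Lgmn stood at 7.14, 2.64, 2.42 and 2.73 FPKM in DN1eP-NKT and at 36.8 and 27.0 FPKM in stage 1. It was below stage 1 by -2.88 ± 0.40 and stage 2 by -2.62 ± 0.32, and above stage 3 by 1.58 ± 0.35. Lamp1, the major glycoprotein of the lysosomal membrane, stood at 84.1, 90.8, 84.8 and 91.6 FPKM in DN1eP-NKT, 63.7 and 68.4 FPKM in stage 1, 38.7 to 51.3 FPKM in stage 2 and 36.9 to 51.1 FPKM in stage 3. DN1eP-NKT lay above all of them, with differences of 0.41 ± 0.26 (not past the threshold), 0.91 ± 0.21 and 0.95 ± 0.23. Lamp2 stood at 53.4, 38.4, 37.1 and 37.1 FPKM and was above stage 3 by 1.43 ± 0.23. Ctsb (cathepsin B) stood at 28.5, 35.7, 33.3 and 36.3 FPKM in DN1eP-NKT and at 66.5 and 64.6 FPKM in stage 1, 64.0 to 71.6 FPKM in stage 2 and 48.4 to 50.6 FPKM in stage 3. It was lower by -0.96 ± 0.20, -1 ± 0.16 and -0.56 ± 0.18. Lipa and Glb1 were below stage 2 by -0.74 ± 0.16 and -0.81 ± 0.20.

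Ctsw, Lyst and Ctsd, which rose from stage 2 to stage 3, were below stage 3 in DN1eP-NKT. Ctsw stood at 281, 191, 161 and 164 FPKM in DN1eP-NKT, and differed from stage 3 by -1.22 ± 0.23 and from stage 2 by 0.00 ± 0.22, which did not pass the test. Lyst stood at 13.5, 5.66, 6.00 and 5.44 FPKM, 1.09 ± 0.27 above stage 1 and -0.91 ± 0.24 from stage 3. Ctsd stood at 364, 448, 534 and 532 FPKM, 0.83 ± 0.26 above stage 1 and -0.83 ± 0.23 from stage 3. Neu1 (sialidase) and Ppt1 (palmitoyl-protein thioesterase) were below stage 3 by -0.87 ± 0.23 and -0.57 ± 0.15. Rab27a stood at 43.7, 45.1, 52.8 and 54.4 FPKM and was -0.63 ± 0.22 from stage 3, a call lost without DN1eP-NKT library 1, 2 or 3 or stage 3 library 2 or 3 (-0.67 to -0.42). Unc13d, at 42.9, 56.2, 66.2 and 68.9 FPKM, Stx11, at 5.82, 4.34, 3.33 and 3.91 FPKM, and Stxbp2, at 34.8, 32.5, 31.4 and 29.5 FPKM, passed none of the 3 tests. Tfeb, at 8.87, 15.7, 19.8 and 13.6 FPKM, passed none either.

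Stage 1 of set B has 2 libraries, and without either of them 5 of its 8 calls were made, with the lone library left assumed to vary like the other groups. Ctsd lost its call without stage 1 library 1 or 2 or DN1eP-NKT library 3 or 4 (0.63 to 1.04), Lipa (-0.74) and Lyst without stage 1 library 1 (-0.69 and 1.03), and Glb1 (-0.86) without stage 1 library 2 (-0.73). Against stage 2, Npc2 (0.49) was at 0.44 to 0.49 without DN1eP-NKT library 1, 2 or 4 or stage 2 library 2 or 4. Against stage 3, Npc2 (0.60) and Ctsd were at 0.46 and -0.72 without stage 3 library 1, and Ctsz (0.72) at 0.62 without DN1eP-NKT library 3 or stage 3 library 2. Without stage 3 library 1, 2 or 3 the call of Gusb (0.73) was lost, as without DN1eP-NKT library 3 or 4 (0.66 to 0.75). Ctsb lost its call against stage 3 without any of the 3 stage 3 libraries or DN1eP-NKT library 1 (-0.57 to -0.48). Man2b1 (0.55) lost it without DN1eP-NKT library 1, 2 or 3 or stage 3 library 1 or 3 (0.46 to 0.57). In the wider lists, Gzmb was above the 3 stages by 11.38 ± 0.72, 9.27 ± 0.59 and 2.66 ± 0.63, and Prf1 above stages 1 and 2 by 4.23 ± 0.33 and 3.57 ± 0.27. Of the 26 exocytosis and cargo genes, 7 rose and 0 fell against stage 1 (26.9%, against 15.2% of all genes), 8 rose and 1 fell against stage 2 (34.6%, against 19.1%), and 3 rose and 2 fell against stage 3 (19.2%, against 23.4%). Of the 35 lysosomal genes, 7 rose and 0 fell (20%), 7 rose and 3 fell (28.6%), and 5 rose and 1 fell (17.1%), with Gm2a (1.86 ± 0.28, 1.49 ± 0.22 and 1.90 ± 0.24) and Grn, progranulin (1.38 ± 0.39, 1.58 ± 0.32 and 1.89 ± 0.35), higher in all 3. The part of the stromal cells in these levels was not tested.

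DN1eP-NKT and DN1eP libraries never share a set, so their difference and that of the sets cannot be told apart in the values as deposited. As deposited, 17 of the 39 genes were higher and 12 lower in DN1eP-NKT (74.4%, against 69.4% of all genes, 47.3% higher and 22.1% lower). With the difference between the sets in thymic NKT cells taken off, on the assumption that it holds for these cells, 4 were higher and 8 lower (30.8%, against 31.6%, 15% higher and 16.6% lower). After upper-quartile scaling the split was 7 higher and 5 lower, and 60.6% of all genes called were higher, against 47.4% before scaling. Higher were Asah1 (1.33 ± 0.34), Gusb (1.204 ± 0.27), Lamp2 (1.12 ± 0.26) and Lamp1 (0.85 ± 0.26). Lower were Gla (-1.97 ± 0.46), Ctsl (-1.55 ± 0.52), Neu1 (-1.09 ± 0.25), Atp6v0d1 (-0.90 ± 0.28), Lipa (-0.85 ± 0.19), Ctsb (-0.84 ± 0.20), Ctsw (-0.83 ± 0.26) and Ctsd (-0.74 ± 0.26). Ctsl lost its call without DN1eP library 2, 3 or 4 or DN1eP-NKT library 1 (-1.44 to -1.26), and Ctsd without DN1eP library 1, DN1eP-NKT library 1 or 2 or stage 1 library 2 (-0.72 to -0.60). With DN1eP library 1 alone 4 of the 12 calls were made, those of Ctsb, Ctsd, Ctsw and Neu1, while Gla was at -0.17, Ctsl at 0.14 and Atp6v0d1 at 0.065. Cd63, high in each group, differed by 0.39 ± 0.57.

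**Figure D5:**
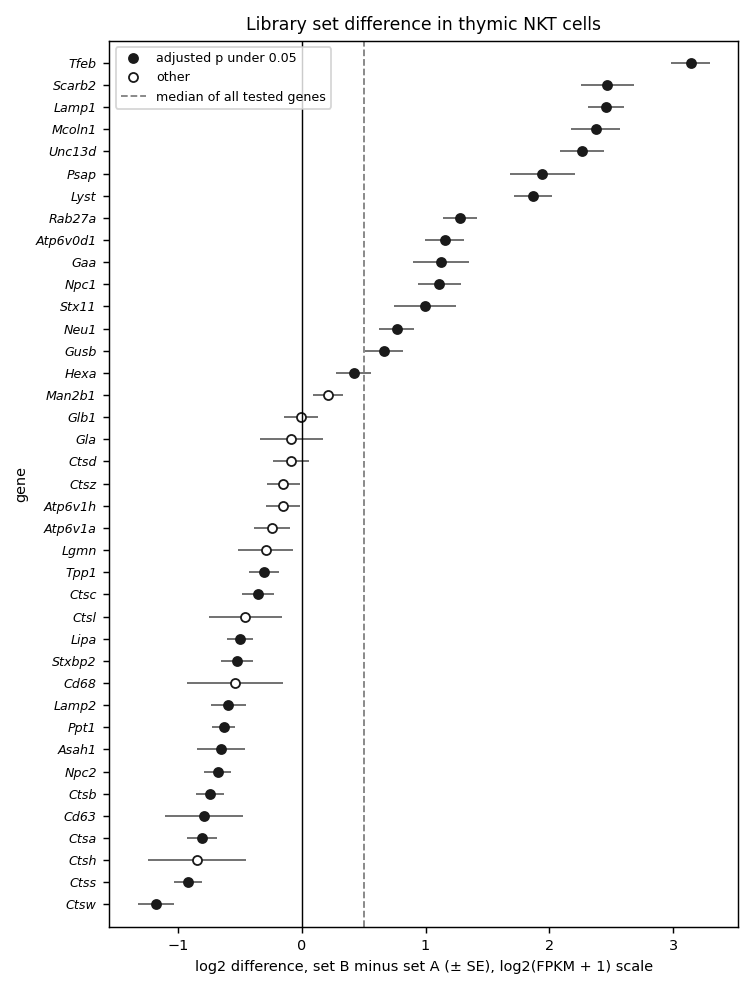
Difference between set B and set A for each gene in thymic NKT cells, with stage in the fit, on the log2(FPKM + 1) scale; bars are ± SE, filled points have an adjusted p under 0.05 and the dashed line is the median of all tested genes, 0.50. Tfeb, Scarb2, Lamp1, Mcoln1 and Unc13d lie beyond 2, and Ctsw lies lowest at -1.18.

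Thymic NKT cells of the same stage also differed between the 2 sets, at 28 of the 39 genes (71.8%, against 72.5% of all genes), with 15 higher and 13 lower in set B (52.3% and 20.3% of all genes). After upper-quartile scaling 12 were higher and 24 lower, and after quantile normalization 10 and 22. Of all genes called, 72% were higher in set B as deposited, and 51.1% and 48% after these scalings. The median of all genes, 0.50 as deposited, moved to 0.00 and -0.06. Lamp1 stood at 36.9 to 68.4 FPKM in the 9 thymic libraries of set B and 4.66 to 15.4 FPKM in those of set A, and differed by 2.46 ± 0.14. Tfeb stood at 8.39 to 16.8 FPKM and 0.20 to 1.34 FPKM, and differed by 3.14 ± 0.16. Scarb2, the receptor that carries β-glucocerebrosidase to lysosomes, differed by 2.47 ± 0.21, Mcoln1 by 2.38 ± 0.20, Unc13d by 2.27 ± 0.18, Lyst by 1.87 ± 0.15 and Rab27a by 1.28 ± 0.14. Stx11 differed by 0.995 ± 0.25, and Stxbp2, the exception among the 5 exocytosis genes, by -0.52 ± 0.13. All 6 proteases that differed were lower in set B, led by Ctsw (-1.18 ± 0.15) and Ctss (-0.92 ± 0.11), while Ctsd, at -0.09 ± 0.15 and not past the threshold, was at 0.28 under quantile normalization. Gusb (0.67) and Hexa (0.42) turned to -0.03 and -0.29 under upper-quartile scaling, and Neu1 (0.77) to -0.06 under quantile normalization. Cd63 (-0.79 ± 0.32) lost its call without stage 1 library 1, 2 or 3 or stage 2 library 6 (-0.81 to -0.53), Tpp1 (-0.31) without stage 1 library 1 or 5 or stage 3 library 2 or 4 (-0.27 to -0.23), Ctsc (-0.35) without stage 1 library 1 (-0.33) and Hexa without stage 1 library 2 (0.35).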

How the data were processed

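RNA was sequenced in 26 libraries made, per the labels' protocols, from total RNA with the SMARTer Ultra Low or TruSeq v2 kit. The deposited values are FPKM per gene with intervals, which the authors made with TopHat2 2.0.6 and Cufflinks 2.1.1 on mm9, per the submitters' processing notes. FPKM is relative to the library total, so a few abundant genes can lower all others. Where a symbol had several rows, their values were added up. Symbols without a row in every file (86) or with an estimate marked as failed (13) were dropped. Gene coordinates are mm9, 1-based, and promoter windows RefSeq GRCm38.p6. Depth was estimated from genes whose deposited interval was taken as that of a single fragment and is rough. In some libraries up to 10 members had an FPKM outside their own interval.

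The 11663 genes that reached 1 FPKM in 4 or more libraries, all 39 members among them, were tested on log2(FPKM + 1) with limma 3.58.1 in R 4.3.3 (trend and robust eBayes), all 26 libraries in 1 fit with 8 coefficients (group within library set) and 18 residual degrees of freedom. The adjustment over the tested genes was that of Benjamini and Hochberg, with a threshold of 0.05. The fit was tested on simulated data. Python 3.11.15 with pandas 2.3.3 and matplotlib 3.10.9 did the rest.

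The members, lists and library sets were chosen with earlier results of these data known. All members may be named, in full up to 6 called in each direction per comparison at a mean of 5 FPKM or more, with Ctsw, Lamp1, Cd63, Tfeb, Rab27a, Unc13d, Lyst, Stx11 and Stxbp2 always. Of the wider lists up to 3 called genes in each direction at that mean were eligible, with Prf1, Gzmb and Cst7 always. A part of those eligible is printed. Alternatives tried were 0.1 as the pseudocount, testing without the filter or with one of 5 FPKM, the highest row per symbol, upper-quartile scaling, quantile normalization, an additive or no set term, a replicate block, fits of the compared libraries alone, and leaving out libraries singly or together. Alternatives chosen after seeing the data left out together stage 1 library 3, stage 2 library 6 and stage 3 library 5; the shallow DN1eP libraries 2 to 4; or the deep library 1 of DN1eP-NKT, stage 1 and stage 2.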

Additional observations from a re-analysis of the deposited data

Results flagged for a closer look

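In groups of 4 libraries, 9 values of members stood apart, where the gap from the highest or lowest library to its neighbour exceeded 0.829 of the group's range. Chance alone flags about 1 in 20 groups, and 117 were examined. Ctsw was at 1154 FPKM in DN1eP library 1, against 660 to 737 FPKM in the others. Tfeb was at 0.248 FPKM in DN1eP library 4, the others being at most 0.0235 FPKM.

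DN1eP-NKT library 1 accounts for 3 of the 9. It held Lgmn at 7.14 FPKM against 2.42 to 2.73 FPKM, Lamp2 at 53.4 FPKM against 37.1 to 38.4 FPKM, and Lyst at 13.5 FPKM against 5.44 to 6.00 FPKM. This library also had the lowest stromal marker sum of the group, 75.6 FPKM, and the greatest depth, 14.9 M fragments against 1.04 to 2.36 M. Its deviations from the group mean correlated with those of stage 1 library 1 (r = 0.484) and stage 2 library 1 (r = 0.431), which are deep too.

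The other 4 lie in stage 2 of set B. Man2b1 was at 40.5 FPKM in library 2, against 37.3 to 37.4 FPKM. Stxbp2 was at 40.2 FPKM in library 4, against 26.5 to 28.8 FPKM. Ctsh and Cd63 were at 0.105 and 0.214 FPKM in library 1 and listed at 0 in the others. With the others at 0, any value above 0 is flagged, so the chance rate above does not hold for these 2. Library 1 is also the deep one of that group, at 12.03 M fragments against 1.07 to 2.55 M.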

How the results depend on the processing

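Counts are of the 39 members. For stage 3 against DN1eP the count of 9 became 5 under upper-quartile scaling and 5 under quantile normalization (1 higher, 4 lower in each), 3 with the replicate block and 2 with the compared libraries alone. Of all genes called there, 21.4% were higher as deposited and 49% and 49.3% under the 2 scalings. For stage 2 against DN1eP the count of 12 became 2 with the replicate block, and for stage 1 against DN1eP 14 became 8 with the compared libraries alone. Quantile normalization gave 14 in place of 9 for DN1eP-NKT against stage 2 (4 higher, 10 lower) and 1 in place of 0 for stage 2 against stage 1, as did leaving out stage 2 library 6 and stage 3 library 5 together (1). Without a set term stage 3 against stage 2 gave 8 in place of 13, and DN1eP-NKT against DN1eP less the set difference 19 in place of 12, which became 7 with the replicate block.

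Over all genes, calls for stage 2 against stage 1 fell from 117 to 27 without a set term, 72 with the replicate block, 49 with the compared libraries alone, 65 without stage 2 library 6 and stage 3 library 5, and 45 when stage 1 library 3 was left out as well. Without a set term the calls were 1460 in place of 3381 for stage 3 against stage 2, and 6136 in place of 3691 for DN1eP-NKT against DN1eP less the set difference (2287 with the block). Against DN1eP they were 923 with the block and 1372 with the compared libraries alone in place of 3443 for stage 2, 1016 and 316 in place of 2405 for stage 3, and 2401 with the compared libraries alone in place of 3926 for stage 1. Fits of the compared libraries alone have fewer samples. A pseudocount of 0.1, the other filters, the highest row per symbol, an additive set term, and leaving out library 1 of DN1eP and of DN1eP-NKT together kept each count of members within 1.5 times.

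With DN1eP libraries 2 to 4 left out, so that set A was deep throughout, members called were 7, 7 and 0 for stages 1, 2 and 3 against DN1eP and 4 for DN1eP-NKT against DN1eP less the set difference. Genes called were 1477, 944, 53 and 1296. With the 3 deep libraries of set B left out, DN1eP-NKT against stage 1 gave 4 members, and stage 2 against stage 1 gave 63 genes. The other member counts stayed within 1.5 times. Both fits were chosen after the depths were seen.

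Replicate numbers did not pair the libraries throughout: 11 of 44 same-numbered pairs correlated over 0.1 (r -0.347 to 0.484). All 6 pairs of number 1 among DN1eP, DN1eP-NKT, stage 1 and stage 2, which are deep libraries, did so (0.161 to 0.484), and 5 of the other 38 (-0.347 to 0.296). With the replicate number as a block, Ctsl missed the threshold in stages 2 and 3 against DN1eP (adjusted p = 0.19 and 0.087), and Gla and Atp6v0d1 in stage 2 (0.14 and 0.057).

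Leaving out each library gave 12 to 15 members for stage 1, 11 to 14 for stage 2 and 6 to 11 for stage 3 against DN1eP. DN1eP-NKT gave 5 to 8, 8 to 12 and 11 to 15 against stages 1, 2 and 3, and 11 to 15 against DN1eP less the set difference. Stage 2 against stage 1 gave 0 to 1, stage 3 against stage 2 11 to 14, and the sets 25 to 29. The 11 members called between stages 2 and 3 in every setting other than the one without a set term were Ctsd, Ctsw, Lyst, Ctss, Ctsz, Lgmn, Glb1, Gusb, Man2b1, Lipa and Lamp2.

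Directions turned in 16 cases. For set B against set A, Gusb was at -0.0333, Hexa at -0.29 and Man2b1 at -0.50 under upper-quartile scaling, and Ctsd at 0.28, Hexa at -0.0257 and Neu1 at -0.0595 under quantile normalization. Without a set term, Scarb2 was at 0.68 and 0.40 for stages 2 and 3 against DN1eP, Lyst at 0.12 for stage 2 against DN1eP, Rab27a and Lyst at 0.23 and 0.13 for DN1eP-NKT against stage 3, and Atp6v0d1 at 0.26 for DN1eP-NKT against DN1eP. Without DN1eP libraries 2 to 4, Gla was at 0.1666 and 0.1706 for stages 1 and 2 against DN1eP, and Ctsl and Atp6v0d1 at 0.1406 and 0.06453 for DN1eP-NKT against DN1eP. The causes were not tested. Depth limits members near 0 FPKM, such as Cd63 and Ctsh in thymic cells.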
